A study of Mus musculus with 2 samples.

Results

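The unfolded protein response and the integrated stress response were followed here through 10 genes, Hspa5, Dnajb9, Herpud1, Xbp1, Atf4, Ddit3, Trib3, Chac1, Asns and Sesn2, which were taken by symbol from a list and make up 10 of the 22886 genes measured. RNA had been sequenced from cells labelled as aerobic tumor cells, sorted by flow cytometry from subcutaneous Lewis lung carcinoma (LLC) tumors of wild type C57BL/6 mice. There was 1 library from mice injected with vehicle and 1 from mice injected with clodronate, a bisphosphonate that is commonly used to deplete phagocytes. Clodronate was the only labelled difference between the libraries, and the labels used here do not give the age of the mice, the dose, the time after injection or how many animals each library holds.

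Secreted and membrane proteins fold in the endoplasmic reticulum, and when unfolded proteins build up there, the sensors IRE1, PERK and ATF6 start the unfolded protein response. IRE1 splices the mRNA of Xbp1, ATF6 is cut to release a transcription factor, and PERK phosphorylates the translation initiation factor eIF2. Other kinases that sense amino acid shortage, double-stranded RNA or heme deficiency phosphorylate eIF2 too, which lowers general translation but favours translation of the Atf4 mRNA, and this shared route is the integrated stress response.

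With 1 library per group, nothing below could be tested and no p-value is given. Levels are the deposited RPKM values, which are read counts scaled to transcript length and library size, and differences are log2 ratios of clodronate over vehicle after adding 1 RPKM to both, a scale that understates differences of low genes. A gene was kept when its mean over both libraries was at least 1 RPKM, which held for 10982 genes and for 8 of the 10 members. The low values fell on steps of about 0.0727 RPKM per fragment and kilobase in the vehicle library and 0.0891 in the clodronate library, which puts the vehicle library at about 1.23 times the depth of the other. Fragment numbers given below are estimates from those steps. The 95% intervals are exact and cover counting error only, not the difference between mice.

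Stretches of 4 promoters are shown because they hold the short elements through which both responses are known to reach their target genes. They are RefSeq sequences of the GRCm38.p6 build and lie upstream of the annotated start, in the direction of the gene. The capitals mark matches to the ER stress response element (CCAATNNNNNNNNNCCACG) in Hspa5, to the ER stress response element II (ATTGGNCCACG) in Herpud1, and to the CEBP-ATF response element (TGATGNAA, or its reverse complement) in Herpud1, Asns and Chac1.
Hspa5, chr2:34771995-34772073, plus strand: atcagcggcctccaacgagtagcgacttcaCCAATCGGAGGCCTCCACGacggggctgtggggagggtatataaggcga
Herpud1, chr8:94386287-94386417, plus strand: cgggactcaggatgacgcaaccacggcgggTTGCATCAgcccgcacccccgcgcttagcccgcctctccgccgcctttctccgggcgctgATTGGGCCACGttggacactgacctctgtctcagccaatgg
Asns, chr6:7693210-7693262, minus strand: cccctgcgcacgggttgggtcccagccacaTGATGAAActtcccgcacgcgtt
Chac1, chr2:119351019-119351086, plus strand: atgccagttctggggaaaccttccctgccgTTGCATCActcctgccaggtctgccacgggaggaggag

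The 250 bases before the start were searched on both strands for each of the 10 members and for 32851 promoters in all. The ER stress response element was present in 0.113% of all promoters and, among the members, in that of Hspa5, from position -65 to -47. The ER stress response element II was present in 0.0304% of all promoters and, among the members, in that of Herpud1, from -52 to -42. The CEBP-ATF response element was present in 3.45% of all promoters and in those of Herpud1, Chac1 and Asns, from -112 to -105, -193 to -186 and -23 to -16. The unfolded protein response element (TGACGTGG) was present in 0.563% of all promoters and matched in no member. The CCAAT box, which is also the first part of the ER stress response element, was common, in 33.8% of all promoters and 7 of the 10 members. A match describes the letters only.

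**Figure D1:**
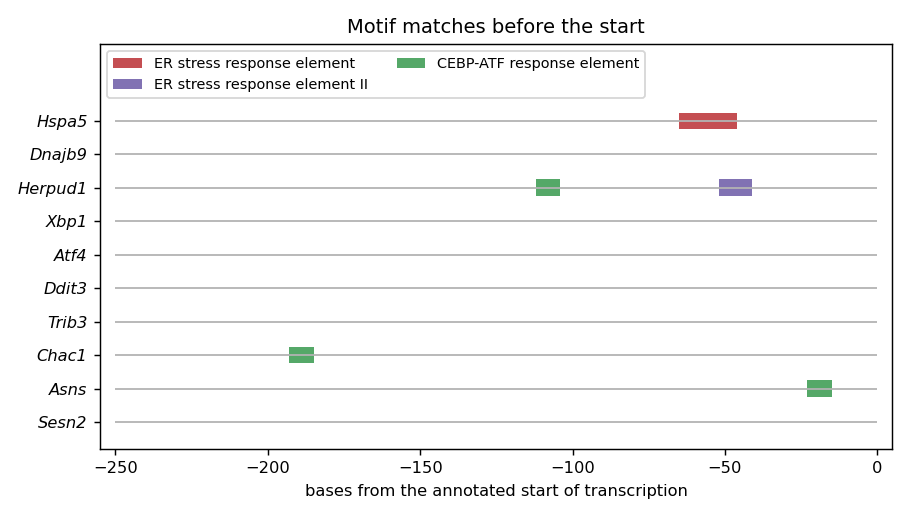
Motif matches in the 250 bases before the annotated start of the 10 members, with the distance from the start in bases on the x axis and 1 line per gene. Hspa5 and Herpud1 carry the long elements within 65 bases of the start, and Asns carries the CEBP-ATF element nearest to its start.

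The 2 libraries carried similar summed amounts of these transcripts. The RPKM of the 10 members summed to 926.3 with vehicle and 900.6 with clodronate, and Hspa5 and Atf4 held 76.1% and 77.3% of those sums. From vehicle to clodronate Hspa5 differed by 45.6 RPKM and Atf4 by -54.5 RPKM, which largely offset each other in the sums. On the log2 scale with 1 RPKM added, none of the 8 members kept differed by 2-fold or more, although the plain ratio of Asns was past 2-fold. On the same scale this stands beside 6.95% of all genes kept that were at least 2-fold higher with clodronate and 6.77% that were at least 2-fold lower. At 3-fold the shares of all genes were 2.86% and 2.32%, and no member kept reached that either. Of the 8 members, 3 were higher and 5 lower with clodronate, where 51.6% of all genes kept were higher. Their median log2 ratio was -0.11 against 0.02 for all genes kept. The directions of Herpud1 and Sesn2 changed after correction for GC content and transcript length, and with all 10 members entered, whatever their level, the median was 0.093. Of the 8 members kept, those furthest from equal levels were Asns, lower by 0.90 on the log2 scale, and Xbp1, lower by 0.48.

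**Figure D2:**
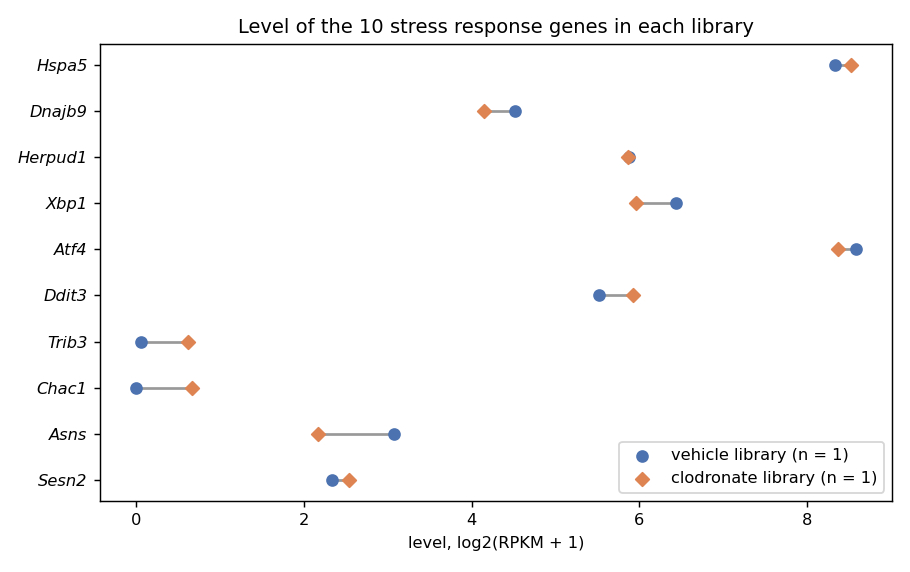
Level of each member in the vehicle and the clodronate library, as log2(RPKM + 1) on the x axis, with 1 point per library. Hspa5 and Atf4 stand above the other members in both libraries, and Trib3 and Chac1 lie near 0 in both.

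Hspa5 encodes BiP, the main HSP70 chaperone of the endoplasmic reticulum, which also holds the stress sensors inactive. It stood at 321.5 RPKM with vehicle and 367.1 RPKM with clodronate. This placed it among the top 2.56% and 2.27% of genes kept, and the clodronate level was 1.14 times the vehicle level (interval 1.11 to 1.17). The interval excludes equal levels as far as counting goes, yet 66.2% of genes in its bin differed by as much or more between these libraries. The genes kept were split by mean RPKM into 10 bins of equal size. Genes of similar abundance are those in the same bin. The bin of Hspa5, which also holds Atf4, is the highest and spans mean levels of 74.9 to 10861 RPKM. For these genes it therefore matches abundance only loosely. The gene lies at chr2:34627610-34632049 in mm9, the build of the files.

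Dnajb9 encodes ERdj4, a co-chaperone of BiP that helps hand misfolded proteins to degradation. Its level was 21.9 RPKM with vehicle and 16.7 RPKM with clodronate, a log2 ratio of -0.37, opposite in direction to that of Hspa5. The ratio was 0.765 (interval 0.676 to 0.865, from about 681 and 425 fragments), and 45.3% of genes of similar abundance differed at least as much. After correction for GC content and transcript length the log2 ratio was -0.12. Hspa5 stood 14.7 times above Dnajb9 with vehicle and 21.9 times above it with clodronate. Dnajb9 lies at chr12:45306884-45311055.

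Herpud1, which encodes a membrane protein of the degradation machinery of the endoplasmic reticulum, was nearly the same in both libraries. It stood at 57.5 RPKM with vehicle and 57.3 RPKM with clodronate, and the ratio of 0.996 had an interval of 0.920 to 1.08. Of the genes in its bin, 99.4% differed at least as much. Of the 8 members kept, Herpud1 (chr8:96910400-96919258) had the smallest difference, and its promoter is the one above with matches to both kinds of element.

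Xbp1 encodes the factor that becomes active after IRE1 splices its mRNA and that drives chaperone and degradation genes. The level was 85.5 RPKM with vehicle and 61.1 RPKM with clodronate, a log2 ratio of -0.48. The ratio was 0.714 (interval 0.667 to 0.765), and 27.7% of genes of similar abundance differed at least as much. The files give 1 value over both Xbp1 transcripts, spliced and unspliced, so that splicing could not be read. Xbp1 (chr11:5420644-5425996) is also abundant in plasma cells. Their markers in these libraries were low: Igj was at 0.153 and 0.187 RPKM, and the 8 markers of B and plasma cells summed to 21.3 RPKM with vehicle and 15.6 RPKM with clodronate, mostly Prdm1 (11.1 and 6.91 RPKM) and Sdc1 (7.05 and 5.23 RPKM), which were lower with clodronate as Xbp1 was. Mzb1, another plasma cell marker, went the other way, from a listed 0 to 1.52 RPKM. The part of such cells in the Xbp1 difference was not tested.

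Atf4, the factor whose translation rises when eIF2 is phosphorylated, had the highest level of all members with vehicle. Its level was 383.7 RPKM with vehicle and 329.2 RPKM with clodronate, a log2 ratio of -0.22. The ratio was 0.858 (interval 0.829 to 0.888), and 61.0% of genes in its bin, the same wide bin as for Hspa5, differed at least as much. The order of Hspa5 and Atf4 was therefore not the same in both libraries, with 0.838 Hspa5 per Atf4 with vehicle and 1.12 with clodronate. Atf4 lies at chr15:80085614-80087971. Its mRNA level does not show how much ATF4 protein was made, since the response acts on translation.

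Ddit3, which encodes CHOP, the factor linked to cell death under lasting stress, was the member with the highest log2 ratio among those kept. It stood at 44.7 RPKM with vehicle and 59.8 RPKM with clodronate, a log2 ratio of 0.41. The ratio was 1.34 (interval 1.17 to 1.53, from about 424 and 463 fragments), and 34.9% of genes in its bin differed at least as much. Atf4 stood 8.59 times above Ddit3 with vehicle and 5.51 times above it with clodronate. The files place Ddit3 in 1 locus with Mars (chr10:126727849-126748842), a gene on the opposite strand whose end overlaps it, and whether strand was used in counting is not given in the sources used here. Mars, at 15.6 and 18.6 RPKM, was also slightly higher with clodronate, with a log2 ratio of 0.24, so that reads from the overlap could not be told apart.

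**Figure D3:**
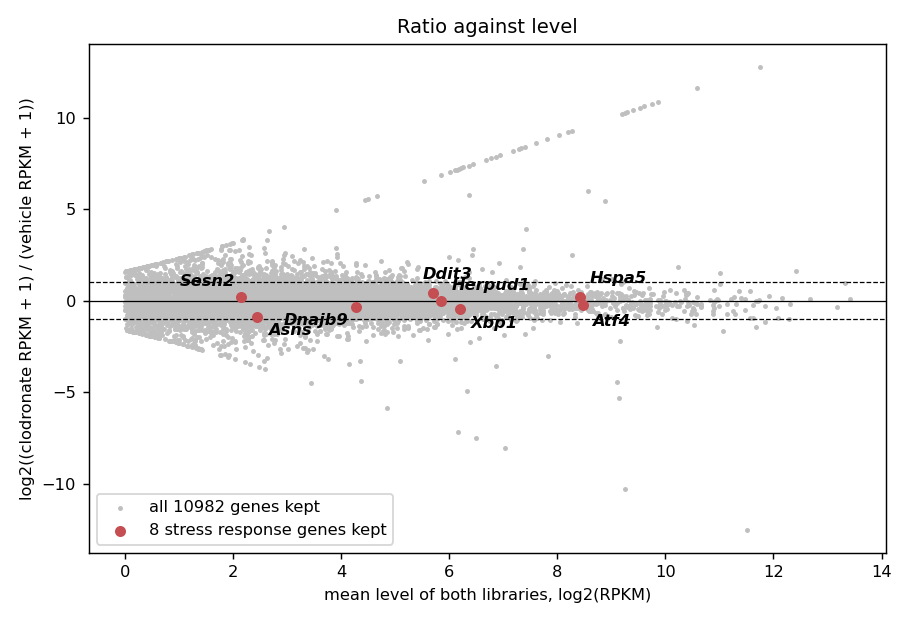
Log2 ratio of clodronate over vehicle on the y axis against the mean level of both libraries, log2(RPKM), on the x axis, for the 10982 genes kept (grey) and the 8 members kept (red), with dashed lines at 2-fold. The 8 members lie between the dashed lines, and those at low levels lie where the spread of all genes is wider.

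The remaining 4 members, known as downstream genes of ATF4 and CHOP, were all below Atf4 and Ddit3 in level. Asns encodes asparagine synthetase, a standard ATF4 target. Its level was 7.41 RPKM with vehicle and 3.51 RPKM with clodronate, which is 2.11 times more with vehicle (interval 1.60 to 2.82, from about 184 and 71 fragments). On the log2 scale with 1 RPKM added this was -0.90 and short of 2-fold, whereas with 0.1 RPKM added it was -1.06 and past it. Of the genes in its bin, 24.95% differed at least as much. Asns lies at chr6:7625171-7643182, and Atf4 stood 51.8 times above it with vehicle and 93.9 times with clodronate.

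Sesn2 encodes Sestrin 2, which restrains mTORC1 signalling when amino acids are short. It stood at 4.05 RPKM with vehicle and 4.82 RPKM with clodronate, and the ratio of 1.19 had an interval of 0.959 to 1.47. Counting error alone thus covers equal levels for Sesn2 (chr4:132048722-132066371). After correction for GC content and transcript length its log2 ratio was -0.12 in place of 0.20, so that no direction can be given for it.

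Trib3 and Chac1 were close to the detection limit and did not pass the filter. Trib3, a pseudokinase induced by ATF4 and CHOP, was at 0.0393 RPKM with vehicle and 0.529 RPKM with clodronate, or about 1 and 11 fragments. The ratio of 13.5 had an interval of 1.96 to 580, which leaves its size unknown. Chac1, an enzyme that degrades glutathione and is also an ATF4 target, was listed at 0 with vehicle and at 0.586 RPKM with clodronate, about 9 fragments. No fold is given for it, because absence and a failed estimate cannot be told apart at a listed 0. A listed 0 also stood beside a clear level in Ndufaf1, an assembly factor of the respiratory chain. That gene, picked with its values in view, had 0 with vehicle and 12.8 RPKM with clodronate, for a reason that was not tested. The same limit holds for every other 0 given here. Both genes lie on chromosome 2, Trib3 at chr2:152163161-152169796 and Chac1 at chr2:119176978-119180062.

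**Figure D4:**
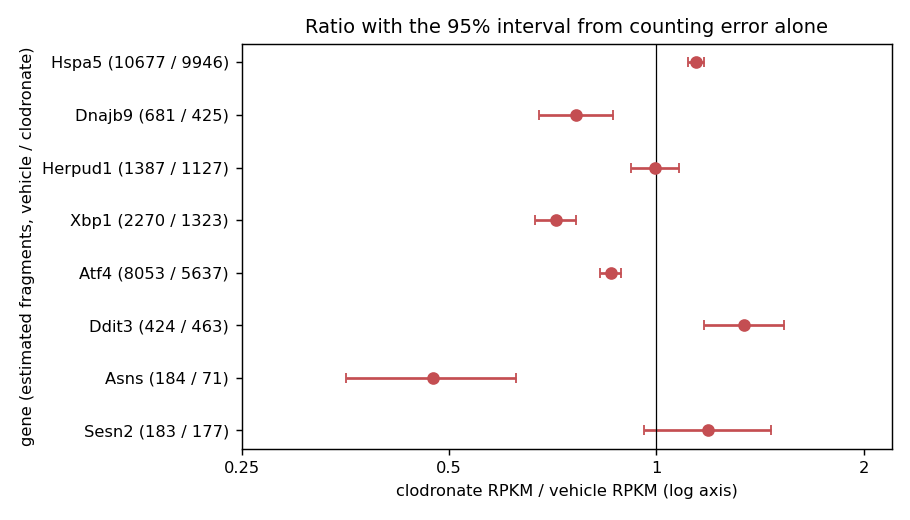
Ratio of clodronate to vehicle RPKM of the 8 members kept, on a log axis, with exact 95% counting intervals as bars. The intervals of Herpud1 and Sesn2 include equal levels, those of Hspa5 and Ddit3 lie above and those of Dnajb9, Xbp1, Atf4 and Asns below.

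The order of the members by level was not the same in both libraries. In the clodronate library Xbp1 (61.1 RPKM, interval 57.8 to 64.5), Ddit3 (59.8 RPKM, interval 54.4 to 65.5) and Herpud1 (57.3 RPKM, interval 54.0 to 60.7) overlapped in their counting intervals and could not be ordered. In the vehicle library the same genes stood apart as Xbp1 (interval 82.0 to 89.1), Herpud1 (54.5 to 60.6) and Ddit3 (40.5 to 49.1). Dnajb9 came next in both libraries. Asns stood above Sesn2 with vehicle, with intervals of 6.39 to 8.58 and 3.49 to 4.69 RPKM. With clodronate the intervals of Asns (2.74 to 4.43) and Sesn2 (4.13 to 5.58) overlapped.

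The rest of both pathways was read from 6 lists of 93 genes, of which 84 were kept. Of these 4 (4.76%) were at least 2-fold higher with clodronate and 2 (2.38%) at least 2-fold lower, both below the shares of all genes given above. The lists were not matched to all genes in level, and ratios spread more widely among low genes. The shares are therefore not compared at like abundance. Of the 84 genes, 55 were higher and 29 lower with clodronate, where 51.6% of all genes kept were higher, and their median log2 ratio was 0.19 against 0.02 for all genes kept.

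The chaperones and folding enzymes of the endoplasmic reticulum had the highest median of the lists, 0.40, with 14 of 18 genes higher with clodronate and 4 lower. Creld2, a secreted protein induced by stress of the endoplasmic reticulum, was highest at 3.69 and 11.3 RPKM (log2 ratio 1.39, about 59 and 147 fragments) and was the only one past 2-fold. Ero1l, an oxidase that serves disulfide formation, was lowest at 30.3 and 26.3 RPKM. Calr and Hsp90b1, abundant chaperones of the same compartment named after their values were seen, had levels of 371.5 and 485.0 RPKM and of 134.5 and 183.0 RPKM. Canx and Ppib, abundant genes of the same list also named after their values were seen, were slightly lower with clodronate. Their levels were 117.2 and 114.8 RPKM and 106.2 and 102.0 RPKM. Hspa5, with a log2 ratio of 0.19, therefore lay below the median of its fellow chaperones, and Dnajb9 at -0.37 lay below every gene of the list. Beside this, 12 of 12 genes known to be induced when tissue is dissociated were higher with clodronate, where 51.6% of all genes kept were higher. They had a median of 0.32, summed levels of 3225 and 3778 RPKM and 1 gene past 2-fold. That gene was Hspa1a, an inducible cytosolic HSP70, at 7.02 and 31.8 RPKM. Dusp1, Ier3, Ier2 and Fos were nearly equal, with log2 ratios of 0.018, 0.069, 0.073 and 0.089. Atf3 is in this list and also in that of other ATF4 targets. The part of dissociation in the chaperone values was not tested.

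The genes of degradation from the endoplasmic reticulum had a median of 0.20, with 11 of 16 kept genes higher and 5 lower, and a median of 0.015 after correction for GC content and transcript length. Ube2g2, a ubiquitin-conjugating enzyme, was highest with a log2 ratio of 0.74. Erlec1, a lectin that reads glycans of misfolded proteins, was lowest at 12.5 and 4.77 RPKM and was past 2-fold, but short of it at -0.98 after that correction. Derl3 was not kept.

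The sensors and their partners were close to equal in both libraries, with 6 of 10 genes higher, 4 lower, none past 2-fold and a median of 0.05. Creb3, a membrane-bound transcription factor, was highest at 20.2 and 31.6 RPKM. Eif2ak3, which encodes PERK, was lowest at 11.1 and 10.2 RPKM. Ern1, which encodes IRE1, was at 17.0 and 22.1 RPKM while Xbp1, the mRNA it splices, was lower with clodronate. Atf6 was at 16.1 and 18.5 RPKM. Ern1 and Atf6 were named after their values were seen.

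The list of eIF2 kinases, phosphatases and the eIF2B exchange factor had a median of -0.25, with 8 of 14 genes lower, 6 higher and none past 2-fold with 1 RPKM added, and a median of -0.045 after the same correction. Subunits of eIF2B lay at both ends: Eif2b1 was highest at 14.1 and 29.0 RPKM, with a log2 ratio of 0.99 that was past 2-fold in 2 of 7 alternatives (up to 1.07), and Eif2b3 was lowest at 10.4 and 5.28 RPKM. The kinases Eif2ak1, Eif2ak2 and Eif2ak4, named after their values were seen, had log2 ratios of -0.54, -0.42 and -0.72, and all 3 were lower with clodronate. Ppp1r15a, which had the highest level of the list, went the other way at 132.2 and 172.2 RPKM (log2 ratio 0.38). The list summed to 454.2 RPKM with vehicle and 482.1 RPKM with clodronate.

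Other ATF4 targets and stress transcription factors had a median of 0.20, with 8 of 11 kept genes higher and 3 lower. Atf5, a relative of Atf4 whose translation also rises when eIF2 is phosphorylated, was highest at 2.65 and 12.2 RPKM (log2 ratio 1.85, about 56 and 210 fragments). Bbc3, which encodes the cell death protein PUMA, was also past 2-fold, at 1.88 and 5.42 RPKM from about 42 and 98 fragments, but short of it at a log2 ratio of 0.96 after correction for GC content and transcript length. Ddit4, an inhibitor of mTORC1, was lowest and past 2-fold in the other direction, at 4.55 and 1.62 RPKM from about 97 and 28 fragments. Fgf21 was listed at 0 in both libraries. All 3 genes past 2-fold were low. Bbc3 lay in the bin with mean levels of 3.58 to 5.55 RPKM, which also holds Asns and Sesn2, and there the log2 ratios ran from -1.34 at percentile 5 to 1.46 at percentile 95. Atf5 and Ddit4 lay in other bins, whose spreads are not given here.

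The genes of amino acid synthesis and transport, the group Asns belongs to, had a median of 0.16, with 10 of 15 kept genes higher and 5 lower. Psph, the last enzyme of serine synthesis, was the only one past 2-fold with 1 RPKM added, at 1.52 and 5.60 RPKM from about 32 and 96 fragments. Slc7a3, a transporter of cationic amino acids, was lowest at 1.71 and 0.369 RPKM from about 51 and 9 fragments, with a log2 ratio of -0.98 that was past 2-fold, at -1.95, when 0.1 RPKM was added. Asns at -0.90 thus lay near the lower end of this group.

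**Figure D5:**
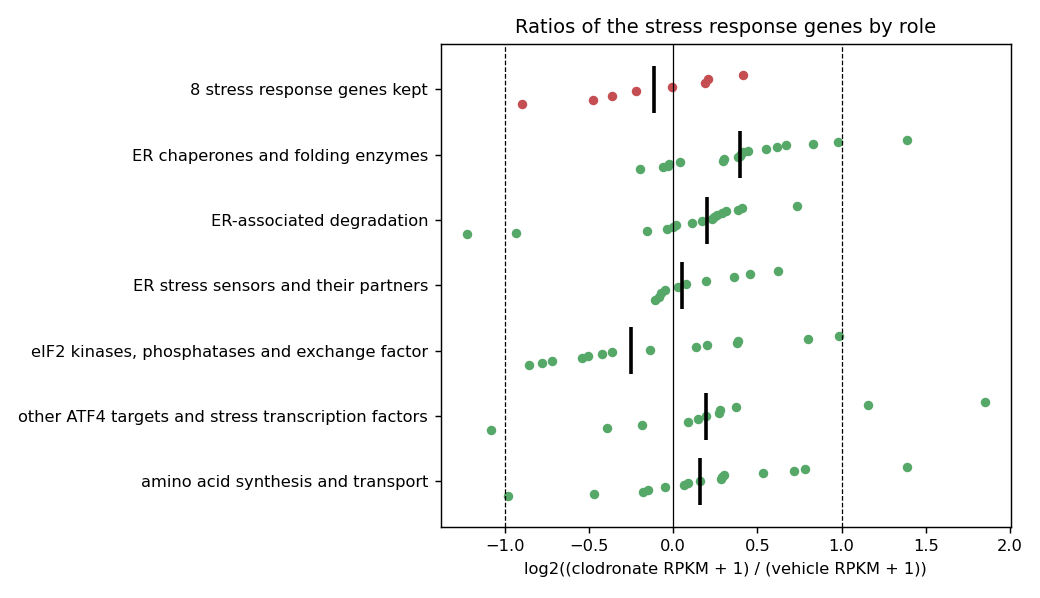
Log2 ratio of clodronate over vehicle on the x axis for the members (red) and the genes of the 6 pathway lists (green), with 1 point per gene kept in rising order, the median of each group as a thick bar and dashed lines at 2-fold. The chaperones have the highest median, 0.40, and the eIF2 list the lowest, -0.25.

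The labelled cell type was checked against its markers, since these values are means over all cells sorted. All 10 macrophage markers were at 10 RPKM or more in both libraries, with summed levels of 23431 and 22416 RPKM, and Lyz2 alone was at 10534 and 11189 RPKM. Of these 10 markers, 7 were higher and 3 lower with clodronate, with a median log2 ratio of 0.07. They ranged from C1qc, at 3984 and 2043 RPKM (log2 ratio -0.96), to Fcgr1, at 22.5 and 42.3 RPKM (log2 ratio 0.88). The 7 epithelial markers summed to 12.9 and 12.0 RPKM, and of them Epcam, Krt19 and Sftpc were listed at 0 in both. The others were found at low levels: Cdh1 at 6.14 and 6.44 RPKM, Krt8 at 3.67 and 1.33 RPKM. Krt18 was at 2.97 and 3.19 RPKM, and Nkx2-1 at 0.141 and 1.08 RPKM. The labels thus call the sorted cells tumor cells, while macrophage genes were the abundant ones. The share of tumor cells among the sorted cells was not tested. The growth protocol of the labels names EML cells, a blood progenitor line, whose markers were mixed. Lmo2 was at 39.5 and 33.0 RPKM, Cd34, Kit, Gata2 and Tal1 were between 0.717 and 2.60 RPKM in either library, and Gata1 was listed at 0 in both. The 8 fibroblast markers summed to 156 and 75.4 RPKM, with 5 of the 6 kept lower with clodronate and Col1a1 higher, at 2.32 and 5.40 RPKM. The 6 endothelial markers summed to 3.34 and 7.84 RPKM, with Cdh5 and Pecam1 higher with clodronate, Vwf lower and Tek and Emcn at 0 in both. The part of these cells in the values of the stress genes was not tested, and fewer cells of a type cannot be told apart from less RNA per cell.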

How the data were processed

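The deposited values were RPKM per locus, made by the authors from polyA RNA of 2 libraries. The submitters' processing notes name CASAVA 1.8.2, TopHat2 2.0.9, Bowtie 0.12.9, Cufflinks 2.2.1, Cuffdiff and the mm9 build, without their roles. Values of rows with the same symbol were summed. Log2 ratios used a pseudocount of 1 RPKM, genes were kept at a mean of at least 1 RPKM, and calls were made at 2-fold. With 1 library per group no test was run. The members and lists were chosen with earlier results of these data known. Every member is reported, and of each pathway list the genes past 2-fold, the highest and the lowest are named. Cell type markers are given mainly as sums.

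Fragments were estimated after the data were seen. RPKM times the transcript length less 200 bases falls on steps, of which 77.8% (vehicle) and 79.4% (clodronate) of low loci lay within 0.1 of a whole number. An assumed fragment length of 100 or 300 in place of 200 bases gave about 187 and 72 or 180 and 70 fragments of Asns, in place of 184 and 71. Intervals of ratios were exact binomial and those of levels exact Poisson, at 95%. The ER stress response element II was added to the motifs after the sequences were seen. Transcript lengths and GC content came from GENCODE M21, matched for 98.7% of genes kept, and promoters from RefSeq, where all 10 members matched. The scripts (Python 3.11.15, numpy 2.4.6, pandas 2.3.3, scipy 1.17.1) were tested on simulated data.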

Additional observations from a re-analysis of the deposited data

How the results depend on the processing

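With 0.1 RPKM added in place of 1, 1 member, Asns (-1.06), was at least 2-fold lower. Without the filter on low values the median of the members was 0.093 over 10 members, against -0.11 over 8, because Trib3 and Chac1 then enter, and the amino acid list had a median of 0.031. With a mean of at least 5 RPKM these medians were -0.22 and 0.28, and 346 genes were at least 2-fold higher and 356 lower, since fewer genes were kept. At 3-fold these counts were 314 and 255. After correction for GC content and transcript length the medians were 0.015 for degradation from the endoplasmic reticulum and -0.045 for the eIF2 list. The other 70 values for groups and counts moved by less than 0.1 on the log2 scale or 1.5 times, also after centring on the median, scaling to the upper quartile and taking the highest row of each symbol. The log2 ratio of Herpud1 ranged from -0.067 to 0.032 and that of Sesn2 from -0.12 to 0.24, so both changed sign. Those of Hspa5 (0.13 to 0.24), Ddit3 (0.35 to 0.56), Dnajb9 (-0.43 to -0.12), Xbp1 (-0.54 to -0.46), Atf4 (-0.28 to -0.22) and Asns (-1.06 to -0.82) kept their direction. Slc7a3 (down to -1.95) was past 2-fold in 3 of 6 alternatives and Eif2b1 (up to 1.07) in 2 of 7, and Bbc3 and Erlec1 fell short of it after correction for GC content and transcript length (0.96 and -0.98). No paired analysis was possible because each group has 1 library. Depth limits Trib3 and Chac1 most.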
